A study of Mus musculus with 12 samples.

Results

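A set of 48 genes of the cell division cycle was followed in regulatory T cells (Tregs) that had lost CD25 or kept it. The cells that lost it were also sorted as CD25-low, and deletion and sort gate cannot be told apart. The genes were taken by symbol from a list of names chosen with earlier results of these data known. All 48 were found among the 24421 gene symbols of the count table, and all 48 passed the filter on low counts that left 12461 genes to test. They were divided by role into 19 genes of S phase and its G1/S entry, 26 genes of mitosis and G2, and 3 genes of inhibitors of cyclin-dependent kinases. In CD25-deleted Tregs of the central gate, 14 of the 48 rose and 0 fell, where 14.8% of all genes tested rose and 12.6% fell. The count of 14 became 7 to 20 when each library was left out in turn. Examples by role are the replication helicase subunit Mcm6, the mitotic phosphatase gene Cdc25b and the kinase inhibitor gene Cdkn2c. In the effector gate 0 of the 48 were called in the same comparison, in the fit of all 12 libraries. There 3.25% of all genes tested rose and 3.4% fell. In a fit of the 6 effector libraries with the replicate number as a block, 7 rose, where 7.54% of genes rose and 6.48% fell. That block was chosen from correlations in these same data. The mitosis genes varied among replicates of each group more than most genes, with summed levels up to 2.08 times apart between libraries of 1 group.

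A dividing cell copies its DNA in S phase and parts it in mitosis, and different genes peak in each. S phase begins when cyclin E with Cdk2 releases E2F factors, which switch on genes of the MCM helicase, of the sliding clamp Pcna and of nucleotide synthesis. Later, the MuvB complex with B-Myb and Foxm1 switches on genes of mitosis through a short promoter element, the cell cycle homology region (CHR), often beside a CCAAT box bound by NF-Y. Cyclin B with Cdk1 drives entry into mitosis, Cdc25 phosphatases activate it, and the anaphase-promoting complex with Cdc20 and Ube2c ends it. Interleukin-2, whose receptor has CD25 as its alpha chain, is known as a growth factor of T cells, and effector Tregs are known to cycle more than central Tregs.

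Per the labels, all mice carried R26tomato+/+ and Foxp3eGFPERT2+/+, and all were given intraperitoneal tamoxifen, 2 mg/kg for 5 days, so the controls were treated too. The Foxp3 allele limits recombination to cells that express Foxp3, the lineage factor of Tregs, and the tomato allele is the reporter used in the sort. The titles and the cell type field give 4 groups of 3 libraries, which are central Tregs (cTreg) and effector Tregs (eTreg), each as wild type (WT) and as CD25 knockout (KO). The field for genotype is at odds with the titles, giving CD25FL/FL for libraries titled WT and CD25WT/WT for those titled KO. The groups here follow the titles. Cells were sorted as live CD4+ cells positive for both reporters, 10 days after induction, and divided into cTreg and eTreg by a surface marker, and KO cells were also gated as CD25-low. Deletion and CD25-low gate therefore go together in every KO against WT comparison here and cannot be told apart. An effect named for the deletion or for loss of CD25 may come from either. Each library pooled spleen and lymph nodes of 2 to 3 mice, and the sources used here do not give their ages.

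Levels are given as CPM, counts relative to the library's TMM-scaled total, a library is named by its group and replicate number (KO cTreg 2), and 'without' a library means that 1 library was left out at a time. A gene is called where its adjusted p is under 0.05 in edgeR's quasi-likelihood test over all 12 libraries, unless another fit is named. Il2ra, the gene of CD25, checked the titles, with 576, 523 and 579.8 CPM in replicates 1, 2 and 3 of WT cTreg and 122, 112 and 113 CPM in KO cTreg. Its eTreg values were 464, 562 and 542 CPM (WT) and 125, 116 and 132 CPM (KO). Every library titled KO lay below every library titled WT, although the CD25-low gate alone selects for this, and which exons the deletion removes is not given in the sources used here. Total counts ran from 14567313 to 19121577, and the 45S ribosomal RNA gene Rn45s took 18.1 to 24.4% of them in cTreg and 3.19 to 4.34% in eTreg. The 6 Treg markers summed to 2347 to 2409 CPM in WT and 2645 to 2698 CPM in KO cTreg and to 3631 to 3830 CPM in WT and 4043 to 4214 CPM in KO eTreg, so they were apart by genotype. Foxp3 itself fell in KO, with a log2 fold change of -0.79 ± 0.06 (SE; adjusted p = 1.47e-07) in cTreg and -0.48 ± 0.06 (SE; adjusted p = 0.000205) in eTreg. Ccr7, a homing receptor gene of central T cells, was at 198 to 342 CPM in cTreg and at 51.8 to 85.9 CPM in eTreg. Markers of other cells were low: 5 B cell markers summed to 7.63 to 15.3 CPM, 3 NK cell markers to 0 to 11.4 CPM and 2 CD8 T cell markers to 5.48 to 12.3 CPM. Likewise 6 myeloid markers summed to 4.38 to 9.56 CPM, 4 plasma cell markers to 0.216 to 1.47 CPM and 4 immature thymocyte markers to at most 0.667 CPM. The B cell sum was apart by genotype, at 11.4 to 12.8 CPM in WT and 7.63 to 9.63 CPM in KO cTreg and 14.8 to 15.3 CPM in WT and 9.29 to 11.2 CPM in KO eTreg, with Ms4a1 at 0 in all cTreg libraries. The NK cell sum was apart in cTreg (WT at most 0.321 CPM, KO 0.731 to 1.85 CPM) and the CD8 T cell sum in eTreg (WT 6.18 to 6.96 CPM, KO 5.48 to 5.51 CPM). The sum of 5 germinal centre B cell markers was apart by genotype in both gates, at 11.4 to 12.8 CPM in WT cTreg, 16.9 to 18.7 in KO cTreg, 17.0 to 21.3 in WT eTreg and 23.4 to 24.0 in KO eTreg. S1pr2 made up most of it, while Rgs13 and Gcsam were at or near 0. The sum of 7 erythroid markers was 39.6 to 42.7 CPM in WT cTreg and 12.4 to 21.1 in KO cTreg, most of it Gata1 with Klf1 at or near 0. In eTreg it overlapped, at 6.34 to 16.2 CPM in WT and 2.72 to 11.1 CPM in KO. The part of these markers in the results was not tested. In bulk RNA, more cycling cells in a library and more of a transcript in each cycling cell cannot be told apart, and that holds for every value here.

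**Figure D1:**
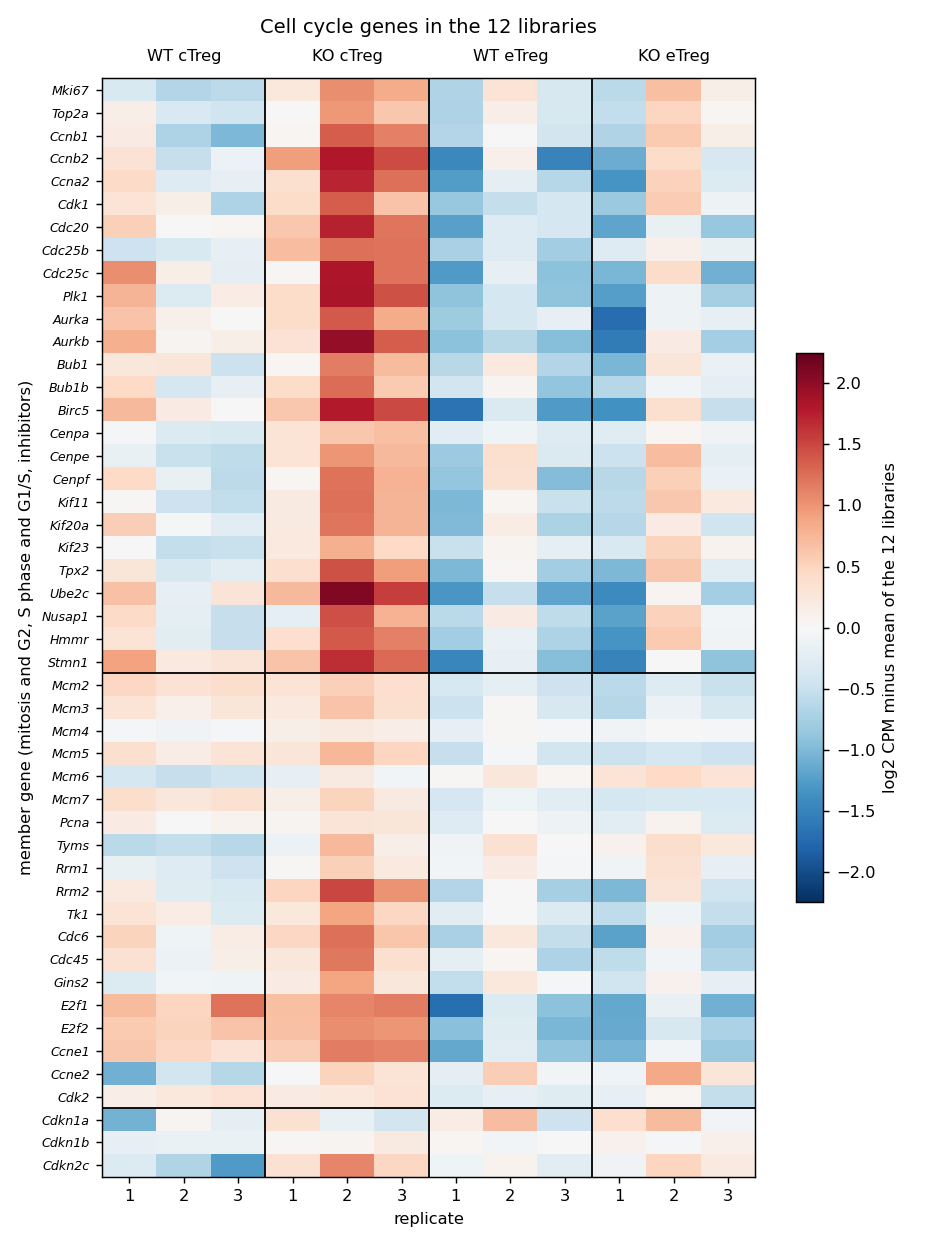
Level of each of the 48 genes (rows) in each of the 12 libraries (columns, by group and replicate), as log2 CPM minus the gene's mean over the 12 libraries; red is above the mean and blue below. The mitosis rows are reddest in KO cTreg replicates 2 and 3, and within eTreg they are higher in replicate 2 than in replicate 1.

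Promoters show how the S phase and mitosis roles differ in sequence. RefSeq promoter windows (GRCm38.p6, 250 bases before to 50 after the start) matched 39 of the 48 members by symbol, with 43 windows, and Mcm4, Kif20a, Cdc25c, Ccne2, Stmn1, Gins2, Aurkb, Tpx2 and Ccna2 had none. The CHR letters TTTGAA or TTCGAA, on either strand, stood in windows of 16 of 20 mitosis genes (80.0%) and 4 of 16 S phase genes (25.0%), beside 21.7% of all genes with a window and 16.5% of those tested here. The E2F letters were TTGGCGC first, with TTGCCGC as the second spelling, TTCGCGC as the next and TTCCCGC as the last. They stood in 4 of 20 mitosis genes (20.0%) and 9 of 16 S phase genes (56.3%), beside 10.9% of all genes and 19.9% of those tested. CCAAT was common in both, at 90.0% of the mitosis and 68.8% of the S phase genes against 41.1% of all, and CHR with CCAAT in the same gene stood at 80.0% of the mitosis genes against 9.65% of all. Matches of different motifs may overlap, and a match describes the letters and does not show a site in use.

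Of the mitosis genes that rose in KO cTreg, 4 are shown for the CHR near the start, and 2 MCM genes are shown for E2F letters. Each stretch runs 5′ to 3′ from 170 bases before to 30 after the start, and capitals mark CHR, CCAAT and E2F letters on either strand. The stretches are Cdc20 from chr4:118437314-118437513 (minus strand), Cdc25b from chr2:131186778-131186977 (plus strand), Cenpa from chr5:30666716-30666915 (plus strand), Kif23 from chr9:61946770-61946969 (minus strand), Mcm5 from chr8:75109339-75109538 (plus strand) and Mcm6 from chr1:128359676-128359875 (minus strand), all GRCm38.p6.
Cdc20: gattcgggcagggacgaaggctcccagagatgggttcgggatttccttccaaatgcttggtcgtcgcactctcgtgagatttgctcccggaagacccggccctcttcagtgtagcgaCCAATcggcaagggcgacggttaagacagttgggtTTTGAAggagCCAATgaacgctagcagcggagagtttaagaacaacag
Cdc25b: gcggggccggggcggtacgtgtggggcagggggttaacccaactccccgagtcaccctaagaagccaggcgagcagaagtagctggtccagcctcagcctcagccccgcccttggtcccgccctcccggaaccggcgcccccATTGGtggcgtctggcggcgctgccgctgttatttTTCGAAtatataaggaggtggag
Cenpa: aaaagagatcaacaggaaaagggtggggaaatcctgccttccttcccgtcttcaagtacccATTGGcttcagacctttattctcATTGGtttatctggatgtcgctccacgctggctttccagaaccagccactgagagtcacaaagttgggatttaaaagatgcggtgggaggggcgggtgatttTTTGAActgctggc
Kif23: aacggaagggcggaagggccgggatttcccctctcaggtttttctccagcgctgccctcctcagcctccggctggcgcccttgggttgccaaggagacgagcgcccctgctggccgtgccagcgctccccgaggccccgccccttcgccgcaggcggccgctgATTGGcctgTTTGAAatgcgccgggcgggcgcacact
Mcm5: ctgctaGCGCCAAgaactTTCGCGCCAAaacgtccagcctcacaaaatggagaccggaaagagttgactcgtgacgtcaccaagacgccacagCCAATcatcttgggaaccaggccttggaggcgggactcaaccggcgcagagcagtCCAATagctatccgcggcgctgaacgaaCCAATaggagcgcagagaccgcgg
Mcm6: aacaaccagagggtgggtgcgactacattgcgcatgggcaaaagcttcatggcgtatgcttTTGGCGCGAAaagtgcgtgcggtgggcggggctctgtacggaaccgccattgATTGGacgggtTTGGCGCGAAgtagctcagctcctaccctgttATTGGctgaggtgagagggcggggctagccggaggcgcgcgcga
In Cdc20 the TTTGAA lies at -18 to -13, in Kif23 it lies at 3 to 8 and in Cenpa at 17 to 22, while Cdc25b has TTCGAA at 8 to 13, counted from the start. In Mcm6 the E2F letters overlap each other at -109 to -100 and again at -46 to -37, and in Mcm5 they lie between -164 and -143. The Ccnb1 window held CCAAT and E2F letters and no CHR letters, which says only that these letters are not in that window.

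KO and WT cTreg were compared first, asking how the division genes of the central gate differ with the deletion and its CD25-low gate together. Of the 48 genes, 14 rose in KO cTreg and 0 fell (29.2% higher), where 14.8% of all genes tested rose and 12.6% fell. By role, 7 of 26 mitosis genes rose, 5 of 19 S phase genes and 2 of 3 inhibitors. The sign was positive for 47 of 48, where 50.3% of all genes were positive. The median log2 fold change was 0.80 against 0.00 for all genes, with 1.04 for mitosis and 0.45 for S phase. All 3 KO libraries lay above all 3 WT libraries for 22 of the 48 (12 mitosis, 8 S phase, 2 inhibitors) and below for 0, where 20.9% of all genes were apart upward and 19.5% downward. An unadjusted p under 0.05 held for 26 of the 48, the DESeq2 Wald test called 20 and limma-voom called 12, all higher. The count depended on single libraries: it was 8 without WT cTreg replicate 2, 7 without WT cTreg replicate 3, 20 without KO cTreg replicate 1, 7 without KO cTreg replicate 2 and 9 without KO cTreg replicate 3. Other members gained a call without KO cTreg 1 (Rrm2, Tk1, Plk1, Aurkb, Kif11 and Hmmr), WT cTreg 1 (Plk1 and Bub1b), WT eTreg 2 (Ccnb2 and Cenpe), KO eTreg 1 (Rrm2, Cdk1 and Hmmr) or KO eTreg 2 (Rrm2, Ccnb2, Cdk1, Cenpe and Hmmr). With no filter on low counts it was 8, as Rrm1, Mki67, Ccnb1, Cdc20, Kif23 and Ube2c lost their calls. An offset for transcript length and GC content turned the split of all calls from 1847 higher and 1574 lower to 1461 and 2484, with 12 of the 48 called.

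Among the genes of mitotic entry, Cdc25b (chromosome 2, 131186949 to 131198497, mm10), whose phosphatase activates Cdk1, stood at 78.7, 84.9 and 94.6 CPM in WT cTreg and 175, 255 and 252 CPM in KO cTreg. In eTreg, Cdc25b was at 64.9, 88.0 and 63.0 CPM in WT and 87.9, 117 and 96.6 CPM in KO. The 3 KO cTreg libraries were apart from, and above, the other 9 libraries, and the log2 fold change was 1.40 ± 0.19 (SE; adjusted p = 0.000635). Ccnb1 (chromosome 13, 100778650 to 100786570), the cyclin B that activates Cdk1, stood at 5.93, 3.17 and 2.54 CPM in WT cTreg and 5.41, 13.7 and 11.5 CPM in KO cTreg. In eTreg, Ccnb1 was at 3.27, 5.26 and 3.90 CPM in WT and 3.23, 7.88 and 5.71 CPM in KO. It rose in KO cTreg by a log2 fold change of 1.41 ± 0.44 (SE; adjusted p = 0.0395), but KO cTreg replicate 1 lay below WT cTreg replicate 1, so the groups overlapped. Cdk1 itself and its partners Ccnb2 and Ccna2 were not called, with a log2 fold change of 0.91 ± 0.37, 1.53 ± 0.51 and 1.20 ± 0.51 (SE) and adjusted p of 0.0972, 0.0574 and 0.120. In other fits Cdk1 (0.0302), Ccnb2 (0.0232) and Plk1 (0.00891) passed by the adjusted p of the DESeq2 Wald test, and Ccnb2 also did in limma-voom (0.0414). Ccnb2 had the highest fold change of the 48 in this comparison and missed the threshold in the 12-library edgeR fit, with groups apart and a wide SE. Plk1, a kinase of mitotic entry, had a log2 fold change of 1.09 ± 0.40 (SE; adjusted p = 0.0756) and Cdc25c had 0.83 ± 0.51 (SE; adjusted p = 0.263), also without a call. The call of Cdc25b held without each library in turn. That of Ccnb1 ended without WT cTreg 2 or 3, KO cTreg 2 or 3, WT eTreg 1, 2 or 3 or KO eTreg 3 (adjusted p up to 0.132), in limma-voom (adjusted p = 0.0697) and with only the 6 cTreg libraries (adjusted p = 0.0795). Exons of Cdc25b overlap those of Spef1 on the opposite strand, and the counting's strand setting is not given in the sources used here.

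Of the machinery that ends mitosis, Cdc20 (chromosome 4, 118432901 to 118437352), the activator of the anaphase-promoting complex, stood at 9.86, 6.85 and 6.99 CPM in WT cTreg and 10.4, 22.7 and 15.8 CPM in KO cTreg. In eTreg, Cdc20 was at 2.85, 5.53 and 5.20 CPM in WT and 2.94, 6.04 and 3.71 CPM in KO. KO cTreg lay above WT cTreg in every library, although KO replicate 1 exceeded WT replicate 1 by little, and the log2 fold change was 1.06 ± 0.34 (SE; adjusted p = 0.0405). Ube2c (chromosome 2, 164769898 to 164778822), the ubiquitin-conjugating enzyme of that complex, stood at 7.22, 3.96 and 5.53 CPM in WT cTreg and 7.56, 19.3 and 13.4 CPM in KO cTreg. In eTreg, Ube2c was at 1.76, 3.14 and 1.92 CPM in WT and 1.62, 4.73 and 2.60 CPM in KO. The groups were again just apart in cTreg, with a log2 fold change of 1.28 ± 0.42 (SE; adjusted p = 0.0441). The spindle checkpoint genes Bub1 and Bub1b were not called, with a log2 fold change of 0.67 ± 0.38 (SE; adjusted p = 0.230) and 0.81 ± 0.32 (SE; adjusted p = 0.0945). The Cdc20 call ended without WT cTreg 2 or 3, KO cTreg 2 or 3, WT eTreg 2 or 3 or KO eTreg 3 (adjusted p up to 0.136). The Ube2c call ended without WT cTreg 1, 2 or 3, KO cTreg 2 or 3, WT eTreg 1 or 3 or KO eTreg 3 (adjusted p up to 0.143). Both also lost their call in limma-voom (adjusted p = 0.0519 and 0.0601) and with only the 6 cTreg libraries in edgeR (adjusted p = 0.0514 and 0.0728), and exons of each overlap another gene on the opposite strand, Elovl1 for Cdc20 and Tnnc2 for Ube2c.

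At the centromere, Cenpa (chromosome 5, 30666777 to 30674830), the histone H3 variant that marks it, stood at 26.9, 21.9 and 21.5 CPM in WT cTreg and 33.9, 41.7 and 43.7 CPM in KO cTreg. In eTreg, Cenpa was at 23.0, 25.6 and 22.3 CPM in WT and 22.6, 28.0 and 25.9 CPM in KO. KO cTreg lay above the other 9 libraries, and Cenpa had the lowest adjusted p of the 48 in this comparison, with a log2 fold change of 0.77 ± 0.11 (SE; adjusted p = 9.87e-05). Its rise held without each library in turn (adjusted p up to 0.00102). The kinetochore proteins' genes Cenpe and Cenpf were not called, with a log2 fold change of 1.12 ± 0.40 (SE; adjusted p = 0.0703) and 0.81 ± 0.49 (SE; adjusted p = 0.274). Cenpe was called by the DESeq2 Wald test (adjusted p = 0.0225) and with only the 6 cTreg libraries in edgeR (adjusted p = 0.00335). The edgeR fit with the replicate block over 12 libraries called it too (adjusted p = 0.0228). Same-numbered cTreg libraries did not correlate above 0.1 over all genes, so that block has no basis in this comparison. The chromosomal passenger genes Aurkb and Birc5 had a log2 fold change of 1.03 ± 0.47 (SE; adjusted p = 0.142) and 1.05 ± 0.48 (SE; adjusted p = 0.141), also uncalled. Cenpa differed from these in its replicate error, which was smaller by its SE.

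Of the motors and spindle genes, Kif23 (chromosome 9, 61915905 to 61946774), a kinesin of the central spindle and cytokinesis, stood at 12.5, 8.58 and 8.76 CPM in WT cTreg and 14.4, 21.9 and 17.1 CPM in KO cTreg. In eTreg, Kif23 was at 8.72, 13.0 and 10.6 CPM in WT and 9.81, 17.6 and 13.2 CPM in KO. The cTreg groups were apart and the log2 fold change was 0.85 ± 0.24 (SE; adjusted p = 0.0235). Without WT cTreg 2 or 3 or KO cTreg 2 (adjusted p up to 0.0899), that call was lost. Kif11, the motor that separates the spindle poles, had a log2 fold change of 1.12 ± 0.40 (SE; adjusted p = 0.0744) and Kif20a had 0.66 ± 0.38 (SE; adjusted p = 0.250). Of the spindle assembly genes, Tpx2 had a log2 fold change of 1.09 ± 0.46 (SE; adjusted p = 0.119), Aurka 0.68 ± 0.35 (SE; adjusted p = 0.176), Hmmr 1.15 ± 0.45 (SE; adjusted p = 0.0875) and Nusap1 0.90 ± 0.53 (SE; adjusted p = 0.261). Stmn1, a microtubule destabiliser, had a log2 fold change of 0.75 ± 0.43 (SE; adjusted p = 0.246). None of these 7 was called, and all 7 were positive. In other fits Kif11 was called by the DESeq2 Wald test (adjusted p = 0.0201) and Hmmr with only the 6 cTreg libraries in edgeR (adjusted p = 0.0248).

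Mki67 (chromosome 7, 135689784 to 135716361), whose protein Ki-67 coats mitotic chromosomes and serves as the usual stain for cycling cells, stood at 151, 120.2 and 126 CPM in WT cTreg and 225, 396 and 339 CPM in KO cTreg. In eTreg, Mki67 was at 120.0, 235 and 149 CPM in WT and 125, 305 and 209.8 CPM in KO. All KO cTreg libraries exceeded all WT cTreg libraries, by a log2 fold change of 1.27 ± 0.38 (SE; adjusted p = 0.0387). That call ended without WT cTreg 1, 2 or 3, KO cTreg 2 or 3, WT eTreg 3 or KO eTreg 3 (adjusted p up to 0.121), and in the fit with length and GC offset (adjusted p = 0.0534). Top2a, the topoisomerase that untangles sister DNA, stood at 104, 73.5 and 68.8 CPM in WT cTreg and 93.7, 185 and 144 CPM in KO cTreg. In eTreg, Top2a was at 58.1, 103 and 72.8 CPM in WT and 63.6, 132 and 96.4 CPM in KO. It was not called in cTreg, with a log2 fold change of 0.79 ± 0.36 (SE; adjusted p = 0.152), and KO cTreg replicate 1 lay below WT cTreg replicate 1.

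**Figure D2:**
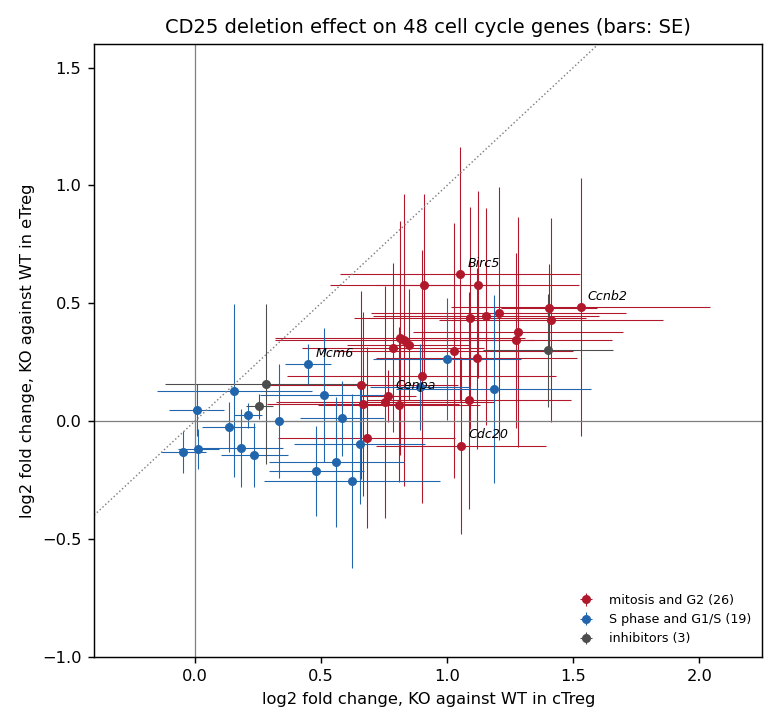
Log2 fold change of KO against WT in cTreg (x axis) and in eTreg (y axis) for each of the 48 genes, coloured by role, with SE bars, and the dotted line marks equal effects. In cTreg 47 of 48 points lie right of 0 with a mitosis median of 1.04, while in eTreg the mitosis median is 0.33.

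In S phase, the MCM genes encode the ring of 6 subunits that unwinds DNA at the fork, and they did not move as 1 unit in KO cTreg. Mcm6 (chromosome 1, 128331590 to 128359664) stood at 109, 101 and 106 CPM in WT cTreg and 127, 166 and 138 CPM in KO cTreg. In eTreg, Mcm6 was at 147, 173 and 149 CPM in WT and 179, 197 and 179 CPM in KO. It rose in KO cTreg by a log2 fold change of 0.45 ± 0.09 (SE; adjusted p = 0.00206), with the groups apart, and the call held without each library in turn. Mcm4 (chromosome 16, 15623897 to 15637400) stood at 97.5, 94.3 and 96.4 CPM in WT cTreg and 109, 114 and 111 CPM in KO cTreg. In eTreg, Mcm4 was at 87.3, 102 and 95.9 CPM in WT and 93.7, 99.2 and 96.8 CPM in KO. Its rise was small and even, a log2 fold change of 0.21 ± 0.05 (SE; adjusted p = 0.00874), and all 3 KO cTreg libraries lay above the other 9. The other subunits were not called: Mcm2 had a log2 fold change of 0.01 ± 0.08, Mcm3 0.18 ± 0.16, Mcm5 0.24 ± 0.13 and Mcm7 -0.05 ± 0.09 (SE), with adjusted p from 0.219 to 0.921. Pcna, the sliding clamp, stood at 101, 89.2 and 93.8 CPM in WT cTreg and 93.2, 109.6 and 108 CPM in KO cTreg. In eTreg, Pcna was at 73.0, 88.8 and 82.8 CPM in WT and 74.8, 94.1 and 71.8 CPM in KO. Its cTreg groups overlapped, with a log2 fold change of 0.13 ± 0.11 (SE; adjusted p = 0.393).

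Of the nucleotide synthesis genes, Tyms (chromosome 5, 30058202 to 30073617), thymidylate synthase, stood at 10.3, 10.7 and 10.1 CPM in WT cTreg and 14.2, 26.1 and 17.2 CPM in KO cTreg. In eTreg, Tyms was at 14.7, 19.8 and 15.7 CPM in WT and 16.7, 20.6 and 18.4 CPM in KO. WT cTreg held the 3 lowest of the 12 values, and Tyms rose in KO cTreg by a log2 fold change of 0.89 ± 0.20 (SE; adjusted p = 0.00517). Rrm1 (chromosome 7, 102441695 to 102469771), the large subunit of ribonucleotide reductase, stood at 49.1, 45.3 and 39.9 CPM in WT cTreg and 56.5, 80.2 and 64.1 CPM in KO cTreg. In eTreg, Rrm1 was at 53, 62.8 and 53.5 CPM in WT and 52.3, 69.8 and 48.6 CPM in KO. It rose by a log2 fold change of 0.58 ± 0.17 (SE; adjusted p = 0.0263) with the cTreg groups apart. Without WT cTreg 2 or 3 or KO cTreg 2 or 3 (adjusted p up to 0.0943) and with the length and GC offset (adjusted p = 0.0529), that call was lost. Rrm2, the small subunit that peaks in S phase, stood at 25.3, 17.9 and 17.1 CPM in WT cTreg and 30.3, 62.1 and 43.9 CPM in KO cTreg. In eTreg, Rrm2 was at 13.8, 21.6 and 12.9 CPM in WT and 10.8, 26.5 and 16.0 CPM in KO. It passed in the DESeq2 Wald test (adjusted p = 0.0141), its groups were apart in cTreg, its log2 fold change was 1.18 ± 0.39 (SE; adjusted p = 0.0536) and it was not called in edgeR, but it was called without KO cTreg replicate 1 or KO eTreg replicate 1 or 2. Tk1, thymidine kinase, had a log2 fold change of 0.48 ± 0.19 (SE; adjusted p = 0.0713). Tyms-ps, named as a pseudogene of Tyms, is listed apart in the count table, so reads of Tyms may be divided between them.

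Of the G1/S regulators, Ccne2 (chromosome 4, 11191351 to 11204779), a cyclin E, stood at 1.68, 2.74 and 2.31 CPM in WT cTreg and 3.71, 5.24 and 4.55 CPM in KO cTreg. In eTreg, Ccne2 was at 3.15, 5.40 and 3.51 CPM in WT and 3.41, 6.72 and 4.43 CPM in KO. It rose in KO cTreg by a log2 fold change of 1.0 ± 0.29 (SE; adjusted p = 0.0179), with WT cTreg holding the 3 lowest values. That call ended without WT cTreg 1 or 3 or KO cTreg 2 (adjusted p up to 0.0791), and its exons overlap those of Ints8 on the opposite strand. Its relative Ccne1 had a log2 fold change of 0.51 ± 0.25 (SE; adjusted p = 0.156) and their kinase Cdk2 had 0.01 ± 0.11 (SE; adjusted p = 0.971). The transcription factors E2f1 and E2f2 had a log2 fold change of 0.16 ± 0.31 (SE; adjusted p = 0.752) and 0.33 ± 0.23 (SE; adjusted p = 0.326). The origin and helicase loading genes Cdc6, Cdc45 and Gins2 had a log2 fold change of 0.62 ± 0.35, 0.56 ± 0.27 and 0.65 ± 0.26 (SE), with adjusted p of 0.221, 0.139 and 0.0730. None of these but Ccne2 was called.

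The inhibitors act against the kinases above. Cdkn2c (chromosome 4, 109660876 to 109667189), which encodes p18, an inhibitor of Cdk4 and Cdk6, stood at 9.30, 7.14 and 4.69 CPM in WT cTreg and 14.7, 24.8 and 16.0 CPM in KO cTreg. In eTreg, Cdkn2c was at 10.7, 12.1 and 9.79 CPM in WT and 10.9, 16.1 and 13.3 CPM in KO. It rose in KO cTreg by a log2 fold change of 1.40 ± 0.26 (SE; adjusted p = 0.00193), and the groups were apart. Cdkn1b (chromosome 6, 134920401 to 134925513), which encodes p27, an inhibitor of cyclin E with Cdk2, stood at 158, 162 and 162 CPM in WT cTreg and 183, 187 and 206 CPM in KO cTreg. In eTreg, Cdkn1b was at 184, 172 and 181 CPM in WT and 191, 177 and 193 CPM in KO. Its rise was a log2 fold change of 0.26 ± 0.05 (SE; adjusted p = 0.00195), with WT cTreg replicates close together and all below KO cTreg. Both calls held without each library in turn. Cdkn1a, which encodes p21, ranged from 0.642 to 2.42 CPM over the 12 libraries and had a log2 fold change of 0.28 ± 0.40 (SE; adjusted p = 0.650).

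In eTreg the same comparison gave no call among the 48 in edgeR, where 3.25% of all genes tested rose and 3.4% fell. An unadjusted p under 0.05 held for 2 of the 48, 1 of S phase and 1 of mitosis, and DESeq2 and limma-voom called 0 each. The median log2 fold change was 0.33 for mitosis and -0.00 for S phase, with 24 of 26 mitosis genes positive, where 51.9% of all genes were. Of the mitosis genes, Mki67 had a log2 fold change of 0.34 ± 0.37 (SE; adjusted p = 0.694) in eTreg. Cdc25b had 0.48 ± 0.19 (SE; adjusted p = 0.201) and Birc5 0.62 ± 0.54 (SE; adjusted p = 0.607). Their SEs in cTreg were near these, at 0.38, 0.19 and 0.48, with log2 fold changes of 1.27, 1.40 and 1.05. Scaling by library size without Rn45s moved the split of all calls in eTreg, from 405 higher and 424 lower to 301 higher and 546 lower, and it left the members' count at 0. Without KO cTreg replicate 2, which enters through the shared estimate of spread, 1 of the 48, Mcm6, was called.

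Libraries with the same replicate number deviated together in eTreg, with correlations of 0.236, 0.308 and 0.147 over all genes, each above 0.1 and each highest with its own number. No label ties the numbers to a litter or day, so this pairing comes from the data. In a fit of only the 6 eTreg libraries with this number as a block, 7 of the 48 rose and 0 fell, where 7.54% of genes rose and 6.48% fell. Cdc25b rose by 0.48 ± 0.05 (SE; adjusted p = 2.51e-05), with log2 ratios of 0.44, 0.41 and 0.62 for numbers 1, 2 and 3. Kif11 rose by a log2 fold change of 0.57 ± 0.08 (SE; adjusted p = 0.000214), with ratios of 0.43, 0.57 and 0.73. Mcm6 rose by a log2 fold change of 0.23 ± 0.04 (SE; adjusted p = 0.00110), with ratios of 0.28, 0.18 and 0.27. The other 4 were Top2a (0.29, adjusted p = 0.00194), Birc5 (0.62, 0.0253), Tpx2 (0.41, 0.0448) and Ccnb2 (0.54, 0.0469), in edgeR. All 7 were higher in KO for each of the 3 numbers, and they are among 12 of 26 mitosis genes and 4 of 19 S phase genes with this pattern. In none of the 3 numbers higher were 0 of the mitosis genes and 5 of the S phase genes. The share over all genes was not counted, and the 7 were called from these same libraries, so these counts only describe the members. With the block over all 12 libraries, 2 of the 48, Mcm6 and Cdc25b, were called in eTreg.

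Whether KO and WT differed by another amount in eTreg than in cTreg was tested by the interaction term. Of the 48, 1 was called, Cenpa, whose KO effect was smaller in eTreg than in cTreg by a log2 difference of -0.66 ± 0.16 (SE; adjusted p = 0.0262). Over all genes 0.803% were called higher and 3% lower for this term, and an offset for length and GC content turned that split from 100 higher and 374 lower to 409 and 349. The difference was negative for 47 of 48, with a median of -0.66, where 50.1% of all genes were positive with a median of 0.00. The members share their libraries, so these signs are not independent. For the 47 members without a call the KO effects are not shown to differ between gates. The Cenpa call ended without WT cTreg 2 or 3, KO cTreg 2 or 3, WT eTreg 2 or KO eTreg 1 or 3 (adjusted p up to 0.0812). The largest log2 differences by size were Cdc20 with -1.16 ± 0.51 (SE; adjusted p = 0.279), Cdkn2c with -1.10 ± 0.35 (SE; adjusted p = 0.130) and Rrm2 with -1.05 ± 0.56 (SE; adjusted p = 0.404), all uncalled in this fit. The DESeq2 Wald test called Cdkn2c (adjusted p = 0.0180) and Cdc25b (adjusted p = 0.0165), and without KO cTreg 1 Tyms and Cdc25b were called in edgeR.

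**Figure D3:**
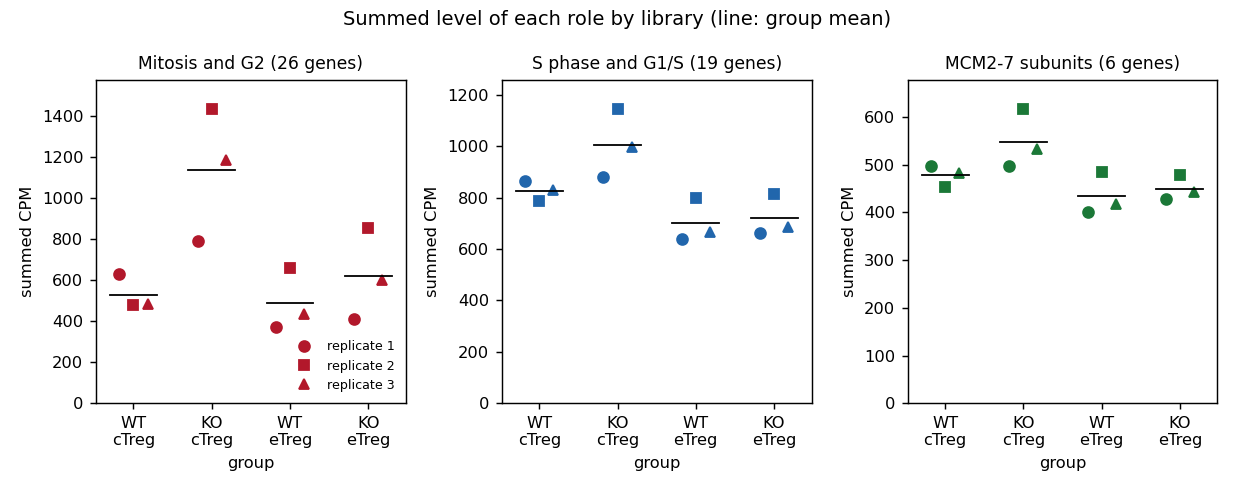
Summed CPM of the mitosis and G2 genes, the S phase and G1/S genes and the 6 MCM subunits (panels, y axis from 0) in each library by group (x axis), with the replicate number as symbol and the group mean as a line. KO cTreg libraries spread from 791 to 1433 CPM for mitosis, all above the WT cTreg libraries at 477 to 631 CPM.

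Replicates of 1 group differed more in the mitosis genes than in the S phase genes. The 26 mitosis genes summed to 631, 477 and 482 CPM in WT cTreg, 791, 1433 and 1186 CPM in KO cTreg, for replicates 1, 2 and 3. They summed to 372, 659 and 435 CPM in WT eTreg and 410.1, 852 and 602 CPM in KO eTreg. The 19 S phase genes summed to 863, 788 and 829.8, 879, 1144 and 997, 641, 800.4 and 668, and 663, 814 and 685 CPM in the same order. The highest library of a group exceeded the lowest by 1.32 to 2.08 times for mitosis and by 1.10 to 1.30 times for S phase. The S phase sum is weighted to the MCM subunits, which held 478 of its 827 CPM in WT cTreg, as means of the replicates. The mitosis genes moved in step within a group: replicate 2 was highest for 25 of 26 in KO cTreg, 24 of 26 in WT eTreg and 26 of 26 in KO eTreg, while replicate 1 was highest for 24 of 26 in WT cTreg. In KO cTreg replicate 1 was lowest for 26 of 26 mitosis genes and for 19 of 19 S phase genes. Of all genes tested, replicate 2 was highest for 33.8 to 37.4% in any group.

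Per gene, the median SD of log2 CPM within a group was 0.40, 0.52, 0.49 and 0.66 for mitosis (cTreg WT and KO, then eTreg WT and KO), against 0.11, 0.10, 0.10 and 0.10 for all genes. For S phase it was 0.10, 0.25, 0.26 and 0.28, and for the MCM subunits 0.07, 0.20, 0.14 and 0.06. Every mitosis gene lay above the median of all genes in each group, and 6, 21, 17 and 23 of 26 lay above the 90th percentile. Counting error alone gives the mitosis genes a median SD of 0.086 to 0.133, below the SD seen. The biological coefficient of variation, edgeR's estimate of spread beyond counting, had a median of 33.7% for mitosis, 15.2% for S phase, 7.68% for the MCM subunits and 7.53% for all genes. Cenpa was the mitosis gene of least spread, at 9.03%. The 90th percentile of 19.9% was exceeded by 23 of 26 mitosis genes and by 6 of 19 S phase genes. Of the S phase genes Rrm2 had the most spread, at 32.4%. Replicate 2 was the deepest library of each group. In WT cTreg, however, replicate 1 was highest for 24 of 26 mitosis genes and had the fewest counts of its group. Klrb1c, an NK cell marker, stood at 11.4 CPM in KO eTreg replicate 2 with Ncr1 and Klra8 at or near 0. The part of depth or of these markers in this spread was not tested.

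**Figure D4:**
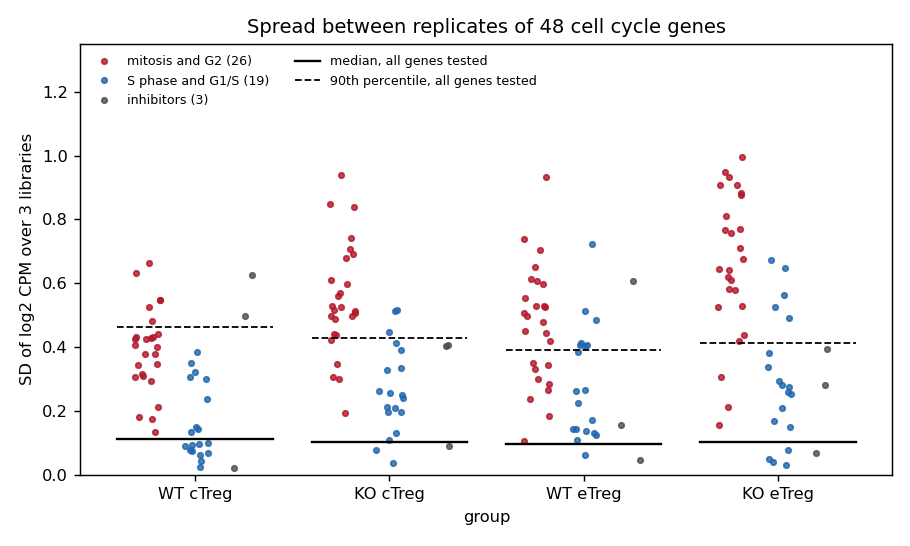
SD of log2 CPM over the 3 libraries of each group (y axis) for each of the 48 genes (points, coloured by role), by group (x axis). The solid line is the median and the dashed line the 90th percentile of all genes tested. Every mitosis point lies above the solid line, and 23 of 26 lie above the dashed line in KO eTreg.

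The gates were compared next, asking how effector and central Tregs differ with CD25 intact and without it. In WT, 5 of the 48 were higher in eTreg and 10 lower, where 35.7% of all genes were higher and 35.8% lower. In KO, 1 was higher, Mcm6, and 32 were lower, where 36.1% of all genes were higher and 35.8% lower. Of the 32 lower in KO, 15 were S phase genes and 17 mitosis genes, and the median log2 fold change was -1.08 for mitosis and -0.78 for S phase. In WT the medians were -0.40 and -0.37. In KO, all 3 eTreg libraries lay below all 3 cTreg libraries for 26 of the 48 and above for 1, where 37.1% of all genes were apart downward and 37.5% upward. Further members were called in WT without WT cTreg 2 (Plk1), KO cTreg 1 (Cdc20, Cdc25c, Plk1, Aurkb and Birc5), KO cTreg 2 (Cdc20, Plk1, Aurkb and Birc5), WT eTreg 2 (Pcna, Ccnb2 and Birc5), KO eTreg 1 (Aurka, Aurkb and Birc5) or KO eTreg 2 (Pcna, Rrm1, Cdc25c, Aurkb and Birc5). In KO they were Ccnb1, Tpx2, Nusap1 and Cdkn2c without KO cTreg 1, and Rrm1, Ccnb1, Cenpe, Kif23 and Tpx2 without KO eTreg 2. With only the 6 WT libraries fitted, 23 of the 48 were called in WT instead of 15. These comparisons share the cTreg libraries with the deletion comparison above, so their values are not independent of it. With an offset for transcript length and GC content, the calls over all genes in WT turned from 4449 higher and 4465 lower to 2578 and 5427, and in KO from 4503 and 4465 to 2924 and 4453.

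Mcm6 was the member higher in eTreg of both genotypes, by a log2 fold change of 0.57 ± 0.09 (SE; adjusted p = 5.34e-05) in WT and 0.36 ± 0.09 (SE; adjusted p = 0.00200) in KO, and its values given above are apart between gates. The KO call ended with the length and GC offset (adjusted p = 0.268). Mcm2 stood at 80.8, 73.5 and 77.4 CPM in WT cTreg and 72.8, 84.5 and 76.4 CPM in KO cTreg. In eTreg, Mcm2 was at 45.8, 50.4 and 42.5 CPM in WT and 38.3, 48.1 and 41.4 CPM in KO. All eTreg libraries lay below all cTreg libraries, with a log2 fold change of -0.74 ± 0.08 (SE; adjusted p = 7.99e-07) in WT and -0.87 ± 0.08 (SE; adjusted p = 1.18e-07) in KO. Mcm3 stood at 68.3, 60.2 and 67.3 CPM in WT cTreg and 64.3, 86.2 and 71.6 CPM in KO cTreg. In eTreg, Mcm3 was at 39.8, 56.6 and 43.4 CPM in WT and 35.7, 50.8 and 43.1 CPM in KO. Mcm3 was lower in eTreg, with a log2 fold change of -0.48 ± 0.17 (SE; adjusted p = 0.0238) in WT and -0.78 ± 0.16 (SE; adjusted p = 0.00160) in KO. Without WT cTreg 1 or 3 or WT eTreg 1 or 3 (adjusted p up to 0.0754), with no filter on low counts (adjusted p = 0.05002) and with the length and GC offset (adjusted p = 0.0605), the WT call was lost. Mcm5 stood at 60.6, 53.3 and 58.5 CPM in WT cTreg and 57.1, 79.6 and 66.1 CPM in KO cTreg. In eTreg, Mcm5 was at 33.0, 46.5 and 35.5 CPM in WT and 33.9, 36.2 and 34.4 CPM in KO. Mcm5 was lower in eTreg, with a log2 fold change of -0.58 ± 0.13 (SE; adjusted p = 0.00213) in WT and -0.96 ± 0.13 (SE; adjusted p = 4.12e-05) in KO. Mcm7, whose exons overlap Ap4m1 and Cops6 on the opposite strand, stood at 79.5, 71.9 and 77.3 CPM in WT cTreg and 66.2, 85.6 and 69.3 CPM in KO cTreg. In eTreg, Mcm7 was at 46.6, 56.9 and 50.9 CPM in WT and 45.9, 47.5 and 47.8 CPM in KO. Mcm7 was lower in eTreg, with a log2 fold change of -0.56 ± 0.09 (SE; adjusted p = 3.63e-05) in WT and -0.65 ± 0.09 (SE; adjusted p = 8.47e-06) in KO. So 4 of the 6 subunits were lower in eTreg of both genotypes, Mcm6 was higher in both, and Mcm4 was lower in KO with a log2 fold change of -0.20 ± 0.05 (SE; adjusted p = 0.00299). With the length and GC offset Mcm4 was lower in WT too (log2 fold change -0.43, adjusted p = 1.98e-06), while Mcm3 in WT and Mcm6 in KO were not called.

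Other S phase genes were lower in eTreg of both genotypes. E2f1, the activator of S phase genes, stood at 6.58, 5.55 and 9.37 CPM in WT cTreg and 6.37, 8.60 and 8.90 CPM in KO cTreg. In eTreg, E2f1 was at 1.15, 3.18 and 2.04 CPM in WT and 1.73, 3.52 and 1.83 CPM in KO. Its cTreg libraries lay above all eTreg libraries, and the difference was a log2 fold change of -1.72 ± 0.34 (SE; adjusted p = 0.000468) in WT and -1.75 ± 0.33 (SE; adjusted p = 0.000340) in KO. E2f2, its relative, stood at 98.3, 92.0 and 103 CPM in WT cTreg and 103, 135 and 131 CPM in KO cTreg. In eTreg, E2f2 was at 34.1, 53.8 and 32.1 CPM in WT and 29.8, 50.7 and 40.0 CPM in KO. E2f2 was lower in eTreg, with a log2 fold change of -1.28 ± 0.24 (SE; adjusted p = 0.00105) in WT and -1.61 ± 0.24 (SE; adjusted p = 0.000224) in KO. Ccne1 stood at 7.78, 7.06 and 6.38 CPM in WT cTreg and 7.56, 11.4 and 11.2 CPM in KO cTreg. In eTreg, Ccne1 was at 2.24, 4.33 and 2.72 CPM in WT and 2.42, 4.88 and 2.83 CPM in KO. Ccne1 was lower in eTreg, with a log2 fold change of -1.17 ± 0.28 (SE; adjusted p = 0.00144) and -1.57 ± 0.27 (SE; adjusted p = 8.04e-05), with the gates apart in both genotypes. Cdk2, whose exons overlap Pmel on the opposite strand, stood at 35.8, 38.4 and 40.7 CPM in WT cTreg and 36.7, 38.0 and 40.8 CPM in KO cTreg. In eTreg, Cdk2 was at 26.3, 28.5 and 26.7 CPM in WT and 28.3, 33.5 and 22.3 CPM in KO. Cdk2 was lower in eTreg, with a log2 fold change of -0.50 ± 0.11 (SE; adjusted p = 0.000798) in WT and -0.46 ± 0.11 (SE; adjusted p = 0.00144) in KO.

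Tyms, Ccne2, Cdkn1b and Cdkn2c, with values given above, were higher in WT eTreg than in WT cTreg, by a log2 fold change of 0.70 ± 0.20, 0.85 ± 0.29, 0.16 ± 0.05 and 0.63 ± 0.26 (SE), with adjusted p of 0.00699, 0.0158, 0.0162 and 0.0494. In KO none of the 4 was called, with a log2 fold change of -0.05 ± 0.18, 0.11 ± 0.26, -0.04 ± 0.05 and -0.47 ± 0.24. With the length and GC offset Cdkn1b (log2 fold change -0.57, adjusted p = 2.03e-07) and Ccne2 (-0.83, adjusted p = 0.0150) were called lower in KO eTreg. In WT with that offset, whose median over all genes is -0.16 in this comparison, Ccne2 turned to -0.04 (adjusted p = 0.908) and Cdkn1b to -0.42 (adjusted p = 5.77e-06), and the Tyms call ended (0.131). The Ccne2 call also ended without WT cTreg 1 or WT eTreg 2 (adjusted p up to 0.108). The call of Cdkn1b ended without WT eTreg 1 (adjusted p up to 0.0608). That of Cdkn2c ended in limma-voom (adjusted p = 0.0616), with no filter (adjusted p = 0.0967) and without WT cTreg 2 or 3, KO cTreg 3, WT eTreg 1, 2 or 3 or KO eTreg 3 (adjusted p up to 0.172). So the direction of Ccne2 and Cdkn1b between gates differs with this correction.

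In KO, further S phase genes were lower in eTreg. Pcna, with values given above, was lower, with a log2 fold change of -0.37 ± 0.11 (SE; adjusted p = 0.00679), and Rrm2 was too, with -1.35 ± 0.38 (SE; adjusted p = 0.0111). Tk1 stood at 13.6, 12.3 and 8.84 CPM in WT cTreg and 12.9, 20.2 and 15.1 CPM in KO cTreg. In eTreg, Tk1 was at 9.08, 11.0 and 8.83 CPM in WT and 7.33, 10.1 and 7.48 CPM in KO. Tk1 was lower in eTreg, with a log2 fold change of -0.95 ± 0.19 (SE; adjusted p = 0.000336), with the gates apart in KO. Cdc6, which loads the helicase at origins, stood at 8.10, 5.33 and 6.38 CPM in WT cTreg and 7.93, 13.6 and 8.77 CPM in KO cTreg. In eTreg, Cdc6 was at 3.39, 6.69 and 3.90 CPM in WT and 2.42, 6.09 and 3.27 CPM in KO. Cdc6 was lower in eTreg, with a log2 fold change of -1.36 ± 0.36 (SE; adjusted p = 0.00478), again with the KO gates apart. Cdc45, a part of the active helicase, stood at 7.54, 5.41 and 6.45 CPM in WT cTreg and 7.11, 13.7 and 7.65 CPM in KO cTreg. In eTreg, Cdc45 was at 5.15, 6.13 and 3.62 CPM in WT and 3.93, 5.67 and 3.66 CPM in KO. Cdc45 was lower in eTreg, with a log2 fold change of -1.10 ± 0.27 (SE; adjusted p = 0.00194). Gins2, also of that helicase, stood at 2.25, 2.67 and 2.61 CPM in WT cTreg and 3.19, 5.24 and 3.36 CPM in KO cTreg. In eTreg, Gins2 was at 1.88, 3.32 and 2.72 CPM in WT and 2.02, 2.99 and 2.44 CPM in KO. Gins2 was lower in eTreg, with a log2 fold change of -0.67 ± 0.25 (SE; adjusted p = 0.0247). Without KO cTreg 2 or KO eTreg 1 or 3 (adjusted p up to 0.179) and with the length and GC offset (adjusted p = 0.134), that call was lost. Exons of Tk1 and Gins2 overlap Afmid and Gse1 on the opposite strand.

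**Figure D5:**
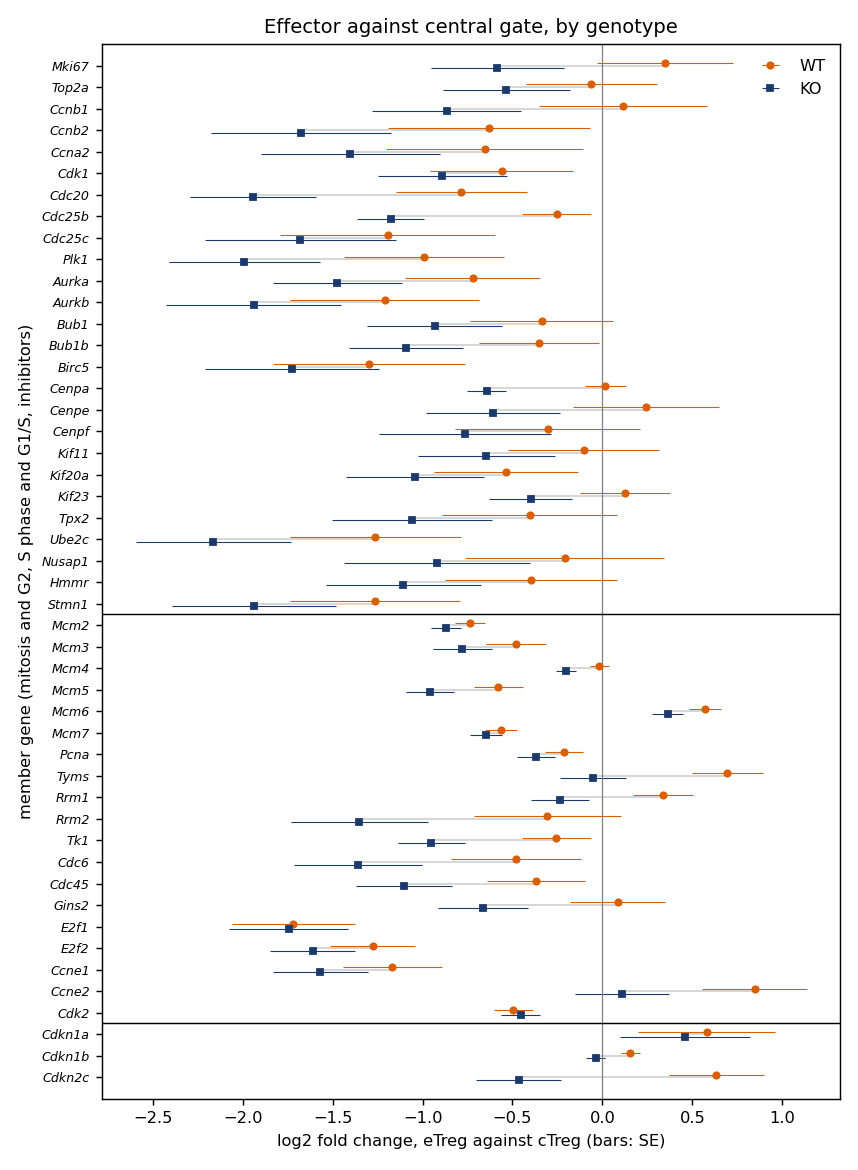
Log2 fold change of eTreg against cTreg (x axis) for each of the 48 genes (rows) in WT (circles) and KO (squares), with SE bars and a grey line joining the genotypes. In KO 45 of 48 points lie left of 0, and Mcm6 lies right of 0 in both genotypes.

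The mitosis genes that were lower in KO eTreg than in KO cTreg included the kinases. Plk1 stood at 9.86, 4.61 and 6.45 CPM in WT cTreg and 7.63, 20.7 and 15.6 CPM in KO cTreg. In eTreg, Plk1 was at 3.03, 4.33 and 3.00 CPM in WT and 2.37, 5.30 and 3.38 CPM in KO. Plk1 was lower in eTreg, with a log2 fold change of -1.99 ± 0.42 (SE; adjusted p = 0.00161) in KO, with the gates apart. Aurka, which builds spindle poles, stood at 5.45, 3.75 and 3.46 CPM in WT cTreg and 4.67, 9.20 and 6.27 CPM in KO cTreg. In eTreg, Aurka was at 1.94, 2.63 and 3.05 CPM in WT and 0.981, 3.20 and 3.05 CPM in KO. Aurka was lower in eTreg, with a log2 fold change of -1.47 ± 0.36 (SE; adjusted p = 0.00232) in KO, with the gates apart. Aurkb, which corrects attachments at the centromere, stood at 8.18, 4.90 and 5.15 CPM in WT cTreg and 5.85, 18.8 and 12.1 CPM in KO cTreg. In eTreg, Aurkb was at 2.42, 3.00 and 2.38 CPM in WT and 1.5, 5.36 and 2.72 CPM in KO. Aurkb was lower in eTreg, with a log2 fold change of -1.94 ± 0.49 (SE; adjusted p = 0.00493) in KO, where the gates were apart too. Cdk1 stood at 6.58, 5.84 and 3.23 CPM in WT cTreg and 7.11, 13.8 and 8.31 CPM in KO cTreg. In eTreg, Cdk1 was at 2.91, 3.64 and 4.02 CPM in WT and 2.94, 7.93 and 4.88 CPM in KO. Cdk1 was lower in eTreg, with a log2 fold change of -0.89 ± 0.36 (SE; adjusted p = 0.0438) in KO, where the gates overlapped. Without WT cTreg 2, KO cTreg 2, WT eTreg 1, 2 or 3 or KO eTreg 1 or 3 (adjusted p up to 0.176) and with scaling by library size without Rn45s (adjusted p = 0.0530), no filter (0.0851) or only the 6 KO libraries (0.0986), that call was lost.

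Of the cyclins and phosphatases, Ccnb2 stood at 10.7, 5.91 and 7.76 CPM in WT cTreg and 16.3, 29.7 and 23.7 CPM in KO cTreg. In eTreg, Ccnb2 was at 3.03, 9.22 and 2.94 CPM in WT and 3.87, 11.3 and 6.59 CPM in KO. Ccnb2 was lower in eTreg, with a log2 fold change of -1.68 ± 0.50 (SE; adjusted p = 0.0146) in KO, with the gates apart. Ccna2, the cyclin of S phase and G2, stood at 16.6, 9.95 and 10.7 CPM in WT cTreg and 15.6, 40.2 and 29.1 CPM in KO cTreg. In eTreg, Ccna2 was at 5.03, 10.5 and 7.75 CPM in WT and 4.79, 17.5 and 9.86 CPM in KO. Ccna2 was lower in eTreg, with a log2 fold change of -1.40 ± 0.50 (SE; adjusted p = 0.0316) in KO, where the gates overlapped. Without KO cTreg 2 or 3 or KO eTreg 1 or 3 (adjusted p up to 0.108) and with only the 6 KO libraries (adjusted p = 0.0953), that call was lost. Cdc25c stood at 2.49, 1.30 and 0.999 CPM in WT cTreg and 1.19, 4.33 and 2.84 CPM in KO cTreg. In eTreg, Cdc25c was at 0.424, 1.01 and 0.566 CPM in WT and 0.520, 1.58 and 0.499 CPM in KO. Cdc25c was lower in eTreg, with a log2 fold change of -1.68 ± 0.53 (SE; adjusted p = 0.0117) in KO with overlapping gates. Without KO cTreg 2 (adjusted p up to 0.0624), that call was lost. Cdc25b was lower, with a log2 fold change of -1.18 ± 0.19 (SE; adjusted p = 0.000326) in KO and had -0.25 ± 0.19 (SE; adjusted p = 0.262) in WT. Exons of Ccna2 overlap Exosc9 on the opposite strand.

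Of checkpoint and exit genes, Cdc20 was lower in KO eTreg, with a log2 fold change of -1.94 ± 0.35 (SE; adjusted p = 0.000449) and so was Ube2c, with -2.16 ± 0.43 (SE; adjusted p = 0.00101), from the values above. Ube2c was also lower in WT eTreg, with a log2 fold change of -1.26 ± 0.47 (SE; adjusted p = 0.0340). Without WT cTreg 1 or 3 or WT eTreg 1 or 3 (adjusted p up to 0.116), in limma-voom (adjusted p = 0.0906), with no filter (adjusted p = 0.0694) and with the length and GC offset (adjusted p = 0.0959), that call was lost. Bub1 stood at 5.21, 5.26 and 3.07 CPM in WT cTreg and 4.45, 9.75 and 7.19 CPM in KO cTreg. In eTreg, Bub1 was at 2.79, 5.07 and 2.72 CPM in WT and 2.08, 5.25 and 3.88 CPM in KO. Bub1 was lower in eTreg, with a log2 fold change of -0.93 ± 0.38 (SE; adjusted p = 0.0423) in KO, where the gates overlapped. Without WT cTreg 1 or 2, KO cTreg 2 or 3 or KO eTreg 1 or 3 (adjusted p up to 0.160) and with scaling by library size without Rn45s (adjusted p = 0.0506), no filter (0.0807) or only the 6 KO libraries (0.0606), that call was lost. Bub1b stood at 17.8, 10.0 and 11.5 CPM in WT cTreg and 17.4, 31.2 and 19.8 CPM in KO cTreg. In eTreg, Bub1b was at 9.75, 13.7 and 7.02 CPM in WT and 8.31, 12.6 and 11.2 CPM in KO. Bub1b was lower in eTreg, with a log2 fold change of -1.09 ± 0.32 (SE; adjusted p = 0.0110) in KO, with the gates apart. Cenpa was lower, with a log2 fold change of -0.64 ± 0.11 (SE; adjusted p = 6.12e-05) in KO and had 0.02 ± 0.11 (SE; adjusted p = 0.900) in WT. Birc5, which encodes survivin, stood at 10.9, 7.43 and 6.61 CPM in WT cTreg and 10.1, 22.7 and 18.5 CPM in KO cTreg. In eTreg, Birc5 was at 2.00, 5.21 and 2.66 CPM in WT and 2.48, 8.45 and 4.54 CPM in KO. Birc5 was lower in eTreg, with a log2 fold change of -1.72 ± 0.48 (SE; adjusted p = 0.00993) in KO, again with the gates apart.

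Of motors and microtubule genes, Kif20a, a kinesin of cytokinesis, stood at 16.1, 10.7 and 9.07 CPM in WT cTreg and 12.5, 25.2 and 18.5 CPM in KO cTreg. In eTreg, Kif20a was at 5.45, 12.2 and 6.62 CPM in WT and 6.98, 12.4 and 7.92 CPM in KO. Kif20a was lower in eTreg, with a log2 fold change of -1.04 ± 0.38 (SE; adjusted p = 0.0342) in KO with the gates apart. Without KO cTreg 2 or 3 or KO eTreg 1 or 3 (adjusted p up to 0.113) and with no filter (adjusted p = 0.0559), that call was lost. Hmmr, a spindle protein gene, stood at 7.06, 4.83 and 3.92 CPM in WT cTreg and 7.41, 15.0 and 12.5 CPM in KO cTreg. In eTreg, Hmmr was at 3.27, 5.12 and 3.45 CPM in WT and 2.19, 8.61 and 5.38 CPM in KO. Hmmr was lower in eTreg, with a log2 fold change of -1.11 ± 0.43 (SE; adjusted p = 0.0414) in KO, where the gates overlapped. Without WT cTreg 2, KO cTreg 2 or 3, WT eTreg 1 or 3 or KO eTreg 1 or 3 (adjusted p up to 0.123), with no filter (adjusted p = 0.0736) and with only the 6 KO libraries (adjusted p = 0.117), that call was lost. Stmn1 stood at 31.4, 19.4 and 20.4 CPM in WT cTreg and 26.1, 52.7 and 40.5 CPM in KO cTreg. In eTreg, Stmn1 was at 5.93, 14.6 and 8.54 CPM in WT and 5.77, 16.4 and 8.87 CPM in KO. Stmn1 was lower in eTreg, with a log2 fold change of -1.26 ± 0.47 (SE; adjusted p = 0.0387) in WT and -1.94 ± 0.46 (SE; adjusted p = 0.00437) in KO. Without WT cTreg 1, 2 or 3, KO cTreg 3, WT eTreg 1 or 3 or KO eTreg 3 (adjusted p up to 0.124) and with no filter (adjusted p = 0.0546), the WT call was lost. Mki67 and Top2a were called in neither genotype: Mki67 had a log2 fold change of 0.35 ± 0.38 (SE; adjusted p = 0.434) in WT and -0.58 ± 0.37 (SE; adjusted p = 0.186) in KO, and Top2a -0.06 ± 0.36 (SE; adjusted p = 0.887) and -0.54 ± 0.35 (SE; adjusted p = 0.203). The remaining 5 mitosis genes, Cenpe, Cenpf, Kif11, Tpx2 and Nusap1, were not called between groups in the 12-library fit, with levels from 3.69 to 56.6 CPM over the 12 libraries. With the length and GC offset, Mki67, Top2a, Ccnb1, Cenpe, Cenpf, Kif11, Kif23, Tpx2 and Nusap1 were called lower in KO eTreg. Exons of Kif20a and Nusap1 overlap Cdc23 and Oip5 on the opposite strand.

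Per kilobase of longest transcript, the highest member in WT cTreg was Pcna, at 62.3 CPM per kb, and Cdkn1b followed at 35.3 CPM per kb. In KO cTreg Cdc25b was highest, at 73.6 CPM per kb against 27.9 in WT cTreg, as group means of 3 libraries. Cdkn1a was lowest in WT cTreg, at 0.542 CPM per kb, and Cdc25c was next, at 0.605 CPM per kb.

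Companion lists of other cell cycle genes, also chosen with earlier results of these data known, were read beside the members. Of 45 tested genes of other mitosis factors, 17 rose in KO cTreg and 0 fell, against 14.8% and 12.6% of all genes, and 0 were called in eTreg. Racgap1, a partner of Kif23 in cytokinesis, rose by a log2 fold change of 1.42 ± 0.21 (SE; adjusted p = 0.000812), Kif2c by 1.24 ± 0.39 (SE; adjusted p = 0.0319) and Kif22 by 1.16 ± 0.38 (SE; adjusted p = 0.0485). Of 30 other S phase genes, 3 rose in KO cTreg, Pola1, Slbp and Dut, and 0 fell. They rose by a log2 fold change of 0.46 ± 0.11, 0.40 ± 0.10 and 0.32 ± 0.11 (SE), with adjusted p of 0.00532, 0.00672 and 0.0355. In eTreg 1 of the 30, Cdca7, fell, with a log2 fold change of -0.43 ± 0.10 (SE; adjusted p = 0.0175). The other mitosis genes thus had a median of 0.93 in cTreg and 0.25 in eTreg, and the other S phase genes 0.25 and -0.05.

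Of 10 tested G1 cyclins, kinases and pocket proteins, 2 rose and 3 fell in KO cTreg, where 14.8% of all genes rose and 12.6% fell. Ccnd2, the D-type cyclin that links growth signals to Cdk4 and Cdk6, stood at 972, 988 and 1016 CPM in WT cTreg and 587, 599.5 and 587 CPM in KO cTreg. In eTreg, Ccnd2 was at 692, 739 and 698 CPM in WT and 537, 556 and 500.1 CPM in KO. It fell in both gates, with a log2 fold change of -0.75 ± 0.05 (SE; adjusted p = 3.29e-08) in cTreg and -0.42 ± 0.05 (SE; adjusted p = 0.000106) in eTreg, and KO and WT libraries were apart in each gate. Ccnd3 and Rb1 fell in cTreg with a log2 fold change of -0.16 ± 0.05 (SE; adjusted p = 0.0242) and -0.13 ± 0.05 (SE; adjusted p = 0.0428). The pocket protein genes Rbl2 and Rbl1 rose with a log2 fold change of 0.31 ± 0.06 (SE; adjusted p = 0.000861) and 0.25 ± 0.05 (SE; adjusted p = 0.00101). In eTreg Rbl1 rose with a log2 fold change of 0.25 ± 0.05 (SE; adjusted p = 0.00389). Of 14 tested inhibitors and p53 targets, 6 rose and 1 fell in KO cTreg, beside the same shares of all genes. Gadd45b rose by a log2 fold change of 0.99 ± 0.14 (SE; adjusted p = 6.97e-05), Ccng1 by 0.57 ± 0.06 (SE; adjusted p = 4.23e-06) and Trp53inp1 by 0.44 ± 0.05 (SE; adjusted p = 9.84e-06). Sesn1 fell, with a log2 fold change of -0.63 ± 0.07 (SE; adjusted p = 9.34e-06). In eTreg Trp53inp1 rose with a log2 fold change of 0.31 ± 0.05 (SE; adjusted p = 0.00140) and Sesn1 fell with -0.42 ± 0.07 (SE; adjusted p = 0.00227). In cTreg, then, Ccnd2 fell while Ccne2 and Cdkn2c rose.

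Between gates, 35.7% of all genes were higher and 35.8% lower in WT eTreg, and 36.1% and 35.8% in KO eTreg, and the list counts here stand beside these shares. By list, 4 of 45 were higher and 10 lower among other mitosis genes in WT eTreg, and 1 of 45 was higher and 28 lower in KO eTreg. Espl1, the separase that cuts cohesin, was lower, with a log2 fold change of -1.67 ± 0.46 (SE; adjusted p = 0.00804) in WT and -2.51 ± 0.45 (SE; adjusted p = 0.000596) in KO. The condensin gene Smc4 was higher by a log2 fold change of 0.69 ± 0.07 (SE; adjusted p = 8.16e-08) and 0.66 ± 0.07 (SE; adjusted p = 1.39e-07). Of other S phase genes 5 of 30 were higher and 6 lower in WT, and 4 of 30 were higher and 15 lower in KO. Hells, a chromatin remodeller, was higher by a log2 fold change of 1.17 ± 0.16 (SE; adjusted p = 2.25e-05) in WT and 0.66 ± 0.16 (SE; adjusted p = 0.00182) in KO. Uhrf1, which maintains DNA methylation, was lower with a log2 fold change of -0.98 ± 0.36 (SE; adjusted p = 0.0359) and -1.53 ± 0.35 (SE; adjusted p = 0.00354). Of the G1 list 5 of 10 were higher and 4 lower in WT, and 6 of 10 were higher and 4 lower in KO. Rbl2 was higher in both, with a log2 fold change of 1.23 ± 0.06 (SE; adjusted p = 2.00e-11) and 1.0 ± 0.06 (SE; adjusted p = 2.29e-10). Ccnd3 was lower, with a log2 fold change of -1.17 ± 0.05 (SE; adjusted p = 6.43e-12) and -1.04 ± 0.05 (SE; adjusted p = 2.99e-11). Of inhibitors and p53 targets 7 of 14 were higher and 4 lower in WT, and 6 of 14 were higher and 4 lower in KO. Cdkn2d, which encodes p19, was lower in both, with a log2 fold change of -2.20 ± 0.13 (SE; adjusted p = 1.30e-09) and -1.96 ± 0.13 (SE; adjusted p = 4.78e-09).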

How the data were processed

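RNA-seq of sorted mouse Tregs was analysed from the deposited table of whole-number read counts per gene symbol, with 24421 symbols and 12 libraries (14567313 to 19121577 counts each). RNA was extracted with RNeasy columns and libraries were made with a ribosomal RNA depletion kit, per the labels' protocols. HISAT2 2.2.1, Cell Ranger and the mm10 build are named in the submitters' processing notes, and the sources used here do not name the counting tool, the annotation or the strand setting. Libraries were grouped by their titles. Each library pooled 2 to 3 mice, and nothing says that libraries of a group came from separate mice, so p-values measure only the spread between these libraries, which may be technical.

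The 12 libraries were fitted together with edgeR 4.0.16 in R 4.3.3 (filterByExpr, TMM, robust quasi-likelihood F-test, two-sided), a mean per group and contrasts between groups, and p-values were adjusted by Benjamini-Hochberg over the 12461 genes that passed the filter. A call is an adjusted p under 0.05. The SE is the absolute log2 fold change divided by the square root of F. Levels are TMM-scaled CPM, and log2 CPM for the SD used a prior count of 0.5. Libraries of a group differed by more than sampling noise, with a chi-square per degree of freedom of 3.62 to 10.2, so none was counted as a repeat.

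The members and lists were chosen with earlier results of these data known. Members called between any pair of groups, and Mki67, Top2a, Ccnb1, Mcm2, Pcna and Rrm2, are given by library, and the others by range and count. Some marker and copy genes are not reported here. Of each list of other cell cycle genes, up to 3 called genes in each direction per contrast could be named, by size of the log2 fold change, and fewer are named here. Gene positions and lengths come from GENCODE vM21 (mm10), and promoter windows from RefSeq (GRCm38.p6).

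Replicate numbers were taken to pair libraries where every same-numbered pair's deviations from the group means correlated above 0.1 over all genes tested. This held in eTreg (0.236, 0.308 and 0.147), from the data and not from the labels. The alternatives were DESeq2 1.42.0 size factors and Wald test, limma 3.58.1 voom, library size without Rn45s, other filters, the replicate block, an offset for length and GC content (splines with 4 degrees of freedom, 11947 genes, 95.9%), fits to the 6 libraries of 1 contrast, and dropping single libraries. On simulated counts for the 12461 genes, the cTreg contrast called 61 of the 100 genes set to a 1.5-fold change and 76 of the 100 set to a 2-fold change, with 3.52% of calls false. The eTreg contrast recovered 52 and 79, with 12.1% of calls false. The changed genes were drawn at random from all genes tested, whose median biological coefficient of variation was 7.53%. For the mitosis members that median was 33.7%, so these recoveries do not describe them.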

Additional observations from a re-analysis of the deposited data

Results flagged for a closer look

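Among the cell cycle genes tested, the KO effect differed between eTreg and cTreg for 3 genes, by the interaction term of the edgeR fit. They were 1 of the 48 members, 1 of 10 G1 genes and 1 of 14 inhibitors and p53 targets. Of 30 other S phase genes and 45 other mitosis genes 0 were called. Over all genes 0.803% were called higher and 3% lower. For Cenpa the log2 difference of effects was -0.66 ± 0.16 (SE; adjusted p = 0.0262), a rise in cTreg that was not called in eTreg. Leaving out 1 library at a time ended that call for 7 libraries (adjusted p up to 0.0812). For Ccng1, a p53 target, it was -0.43 ± 0.09 (SE; adjusted p = 0.00731). For Ccnd2 it was 0.33 ± 0.07 (SE; adjusted p = 0.0116), with a fall in both gates that was larger in cTreg.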

How the results depend on the processing

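For KO against WT in cTreg, 14 members were called, 8 with no filter on low counts, and 7 to 20 when each library was left out in turn. In eTreg the count of 0 became 2 with the replicate block over 12 libraries, 1 with that block and the length and GC offset, 7 with the block in the 6 eTreg libraries alone, and 0 to 1 when a library was left out. Over all genes the 829 calls in eTreg became 1712 with the block in the 6 libraries, and 455 to 890 when a library was left out, with 455 without WT eTreg replicate 2, 497 without WT eTreg replicate 3 and 462 without KO eTreg replicate 3. Between gates in WT, 15 members were called, 23 with only the 6 WT libraries, and 10 to 20 when a library was left out; in KO it was 33, and 26 to 38. For the difference of effects between gates, the 1 member called became 3 with the DESeq2 Wald test, 5 with the replicate block over 12 libraries, 4 with the block and the offset, and 0 to 3 when a library was left out. Over all genes its 474 calls became 758 with the offset, 903 with the block and the offset, and 314 to 570 when a library was left out, the lowest without KO cTreg replicate 2. Directions reversed with the offset, alone and with the block: Ccne2 between gates in WT (-0.043 and -0.052) and in KO (-0.83 and -0.85), and Cdkn1b between gates in WT (-0.42 and -0.42). The cause of these changes was not tested. A direction was counted as reversed only where 1 of the values compared was called.

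Outside eTreg, same-numbered libraries did not all correlate above 0.1 over all genes. Those correlations were -0.08, 0.00 and 0.05 in cTreg, -0.04, -0.15 and 0.02 between gates in WT, and 0.17, 0.00 and -0.07 in KO. Of the 3 numbers, 1, 0 and 1 correlated best with their own. Over the 48 members the correlations were -0.82, -0.42 and -0.16 in cTreg and -0.32, -0.28 and -0.03 between gates in WT. Between gates in KO the members' correlations were 0.759, 0.685 and 0.101. What the numbers share was not tested. With the replicate block over 12 libraries, 19 members were called in KO cTreg, 21 between gates in WT and 36 in KO, and in 6 libraries with the block 13, 22 and 44. Levels near 1 CPM, as for Cdc25c and Cdkn1a, rest on few reads, which limits their precision, and 3 libraries a group limit every SE.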
